A study of Mus musculus with 3 samples.

Results

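The genes of the mitochondrial respiratory chain were followed in mouse skin from the last days before birth to adulthood. Members were taken by name: every gene row whose symbol starts with Nduf, Uqcr, Atp5 or Cox followed by a digit, together with Sdha, Sdhb, Sdhc, Sdhd and Cycs. This gave 98 of the 21881 gene rows in each table. Of them 74 are structural subunits, 13 are assembly or other factors, 4 are tissue-specific isoforms of complex IV (Cox6a2, Cox7a1, Cox8b and Cox4i2) and 4 are testis-type or induced isoforms. The remaining 3 are Cycs (cytochrome c), the supercomplex factor Cox7a2l, and Cox4nb, a neighbour of Cox4i1 that shares its name but is no respiratory chain gene.

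The 3 groups were skin of FVB mice at embryonic day 18.5 (E18.5), at postnatal day 3 (P3) and at 10 weeks. FVB is an inbred albino strain. The column headings call all 3 wild type, and no treatment is named. Each age has 1 value per gene, headed as an average FPKM (fragments mapped to a gene, scaled to transcript length and to the fragments mapped in the library). The submitters' design describes biological replicates, 2 for each age, whose single values were not used here. No spread between animals could therefore be given, no p-value is attached to any difference, and the depth is unknown.

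The respiratory chain passes electrons from NADH (complex I) and succinate (complex II) through complex III and cytochrome c to oxygen at complex IV, and the proton gradient built on the way drives ATP synthase, complex V. Most subunits are encoded in the nucleus and are made in nearly every cell, in amounts that follow the cell's content of mitochondria. A few subunits of complex IV exist in a ubiquitous form and a form found chiefly in striated muscle, heart and brown fat. Epidermis is a tissue of modest oxidative capacity, whereas the muscle layer under mouse skin and its fat are richer in mitochondria.

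A gene is called higher or lower when log2 of (FPKM + 1) differed by at least 1, that is 2-fold, among rows that reached 1 FPKM at any of the ages. Of the 98 members 96 passed that minimum. The other two, Cox7b2 and Cox8c, isoforms known from testis, were listed at 0 at E18.5 and 10 weeks and stood at 0.00724 and 0.00902 FPKM at P3. All 96 bore the mark OK at the 3 ages. Of the whole series, 14662 rows reached the minimum. The E18.5 library showed a male pattern of sex-linked genes (Xist 0.0433 FPKM, Ddx3y 24.1) and the other two a female one (Xist 64.6 at P3 and 73.0 at 10 weeks, Ddx3y 0.0218 at P3 and listed at 0 at 10 weeks), so that age and sex cannot be told apart in comparisons with E18.5. Keratinocyte genes, which mark the epidermis of the labelled tissue, were abundant at each age, such as Krt14 (952, 2439 and 646 FPKM in order of age). In the same libraries the muscle gene Ckm stood at 456, 26.3 and 3075 FPKM and the fat gene Adipoq at 326, 68.8 and 509 FPKM.

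Respiratory chain transcripts were abundant at every age and were lower in newborn skin than before birth or in the adult. Summed over the 98 members they made up 4.25% of all FPKM before birth, 2.71% at P3 and 3.56% in the adult. These totals leave out failed estimates, 3 rows at E18.5 and 7 at P3. Those at P3 include Krt1 and Krt10, which had 3688 and 4499 FPKM at E18.5, so that the P3 total is too low. The median structural subunit had 220 FPKM before birth, 144 at P3 and 225 in the adult, against 8.95, 9.47 and 10.9 FPKM for the median of all rows that reached the minimum. From E18.5 to P3 the value was lower for 73 of 74 structural subunits, where 47.6% of all rows had a lower value and 52.3% a higher one, and the median log2 difference was -0.64 against 0.03 for all rows. From P3 to 10 weeks 70 of the 74 had a higher value, where 57.2% of all rows did and 42.1% had a lower value, with a median of 0.53 against 0.14. Between E18.5 and 10 weeks 51 of 74 had a lower value, against 34% of all rows (65.7% were higher), and the median was -0.11 against 0.22. The step at P3 was thus broad but small, and it lay mostly under the 2-fold threshold.

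**Figure D1:**
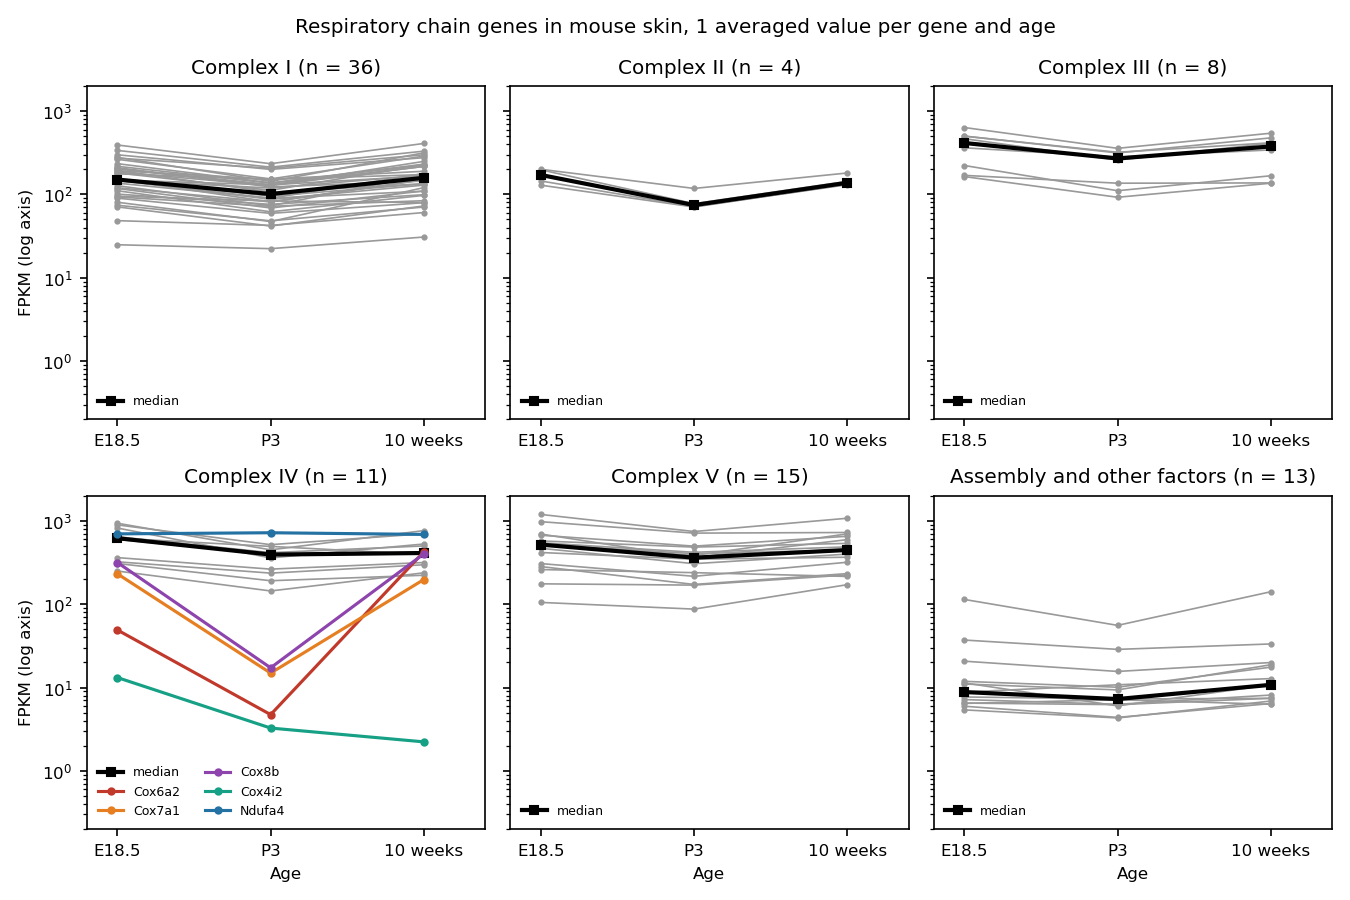
FPKM on a log axis at the 3 ages for the structural subunits of each complex and for the assembly and other factors. Grey lines are single genes and the black line is the group median. In complex IV the 4 tissue-specific isoforms and Ndufa4 are drawn in colour. The medians dip at P3 by less than 2-fold in complexes I, III, IV and V and from 171 to 74.4 FPKM in complex II, while Cox6a2, Cox7a1 and Cox8b lie 10.4-fold to 18.3-fold lower at P3.

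Of the 96 members compared, 10 were lower at P3 than at E18.5 and 0 higher, beside 9.42% of all rows lower and 9.56% higher. The 10 were the tissue-specific isoforms Cox8b, Cox7a1, Cox6a2 and Cox4i2, the complex IV subunits Cox7c and Cox6c, the complex II subunits Sdhd and Sdha, cytochrome c and the copper chaperone Cox17. A share of that size is close to the background. It is not so under scaling by the upper quartile, where 22 of 96 members were lower, against 12.5% of all rows. With the median of ratios 14 of 96 were lower, against 11.1%. The smaller shift of the remaining members shows at a lower threshold, since 51 of 96 were at least 1.5-fold lower, against 18.1% of all rows. From P3 to 10 weeks 9 of 96 were higher and 0 lower, beside 19.8% and 9.98% of all rows, so that the share past 2-fold was below that of all rows. They were Cox6a2, Cox8b, Cox7a1, Cox17, Cycs and the complex I subunits Ndufa13, Ndufv3, Ndufa6 and Ndufb3. At 1.5-fold 39 of 96 were higher, against 30.7% of all rows. The P3 value enters both comparisons.

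**Figure D2:**
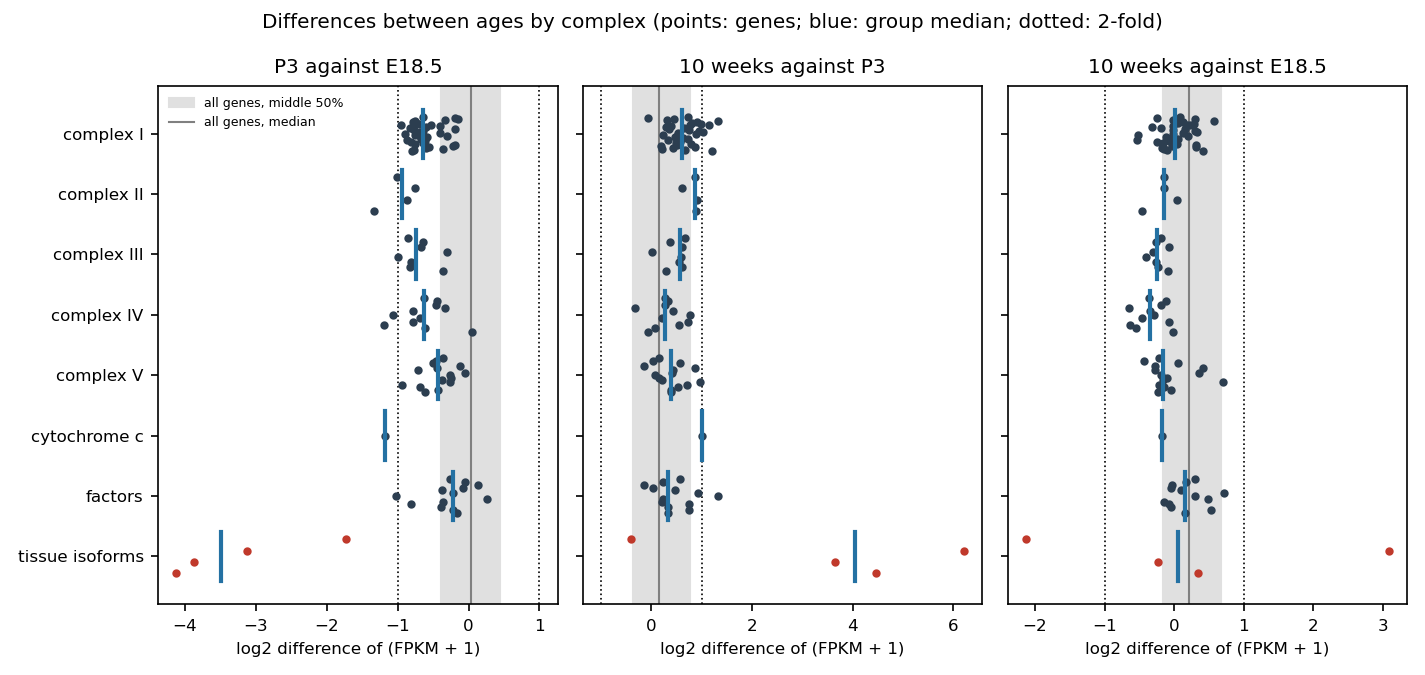
Log2 differences of (FPKM + 1) between ages, with each point a gene, blue bars the group medians, the grey band the middle 50% of all rows compared, and dotted lines at 2-fold. In P3 against E18.5 the medians of the 5 complexes lie between -0.94 and -0.43, to the left of the grey band, and the tissue-specific isoforms lie far outside it.

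Complex I, the NADH dehydrogenase, had 36 structural members, with values from 24.9 FPKM (Ndufa11) to 391 (Ndufa3) at E18.5. All 36 had a lower value at P3 than at E18.5, and 35 a higher value at 10 weeks than at P3. The median log2 differences were -0.65 and 0.60, and 0.01 between E18.5 and 10 weeks. The 7 core subunits, which carry the flavin and the iron-sulphur clusters, had medians of -0.61 and 0.54. The 29 accessory subunits, which surround that core, had medians of -0.66 and 0.65. Between E18.5 and 10 weeks the core median was -0.15 and the accessory median 0.06. The difference between core and accessory subunits was not tested.

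No complex I subunit differed 2-fold between E18.5 and P3. The extremes were Ndufa6 (278, 143 and 315 FPKM at E18.5, P3 and 10 weeks; log2 difference -0.95 to P3) and Ndufb5 (152, 81.3 and 150 FPKM; -0.90) at one end. Ndufs5 (48.4, 42.4 and 60.5 FPKM; -0.19) and Ndufa11 (24.9, 22.3 and 30.8 FPKM; -0.15) were at the other. Of the 36 subunits 4 were higher at 10 weeks than at P3, beside 19.8% of all rows. All 4 were accessory subunits, as are 29 of the 36. Ndufa13, which is also known as a cell death regulator, stood at 80.4, 47.2 and 120 FPKM (log2 difference 1.33 from P3). Ndufv3 stood at 127, 73.0 and 170 FPKM (1.21), and Ndufa6 and Ndufb3 had differences of 1.14 and 1.02. Ndufa10 was the exception with 95.2, 83.3 and 79.8 FPKM and had its lowest value in the adult. The adult values of Ndufc2 (134 FPKM, from 194 at E18.5) and Ndufb6 (145 from 209) were furthest below those of E18.5, both at -0.53, and that of Ndufa13 was furthest above (0.58).

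Complex II, succinate dehydrogenase, which also belongs to the citric acid cycle, had the largest median of the 5 complexes at P3, -0.94. Sdha, the flavoprotein that oxidises succinate, had 145 FPKM at E18.5, 71.4 at P3 and 131 in the adult. Sdhb, the iron-sulphur subunit, stood at 200, 118 and 181 FPKM. The membrane anchors Sdhc and Sdhd stood at 129, 70.5 and 132 FPKM and at 197, 77.4 and 143 FPKM. Sdha (-1.01) and Sdhd (-1.34) passed 2-fold at P3, and Sdhb (-0.76) and Sdhc (-0.86) did not. The Sdha difference sits close to the threshold, and with a pseudocount of 5 the lower members numbered 8 in place of 10. From P3 to 10 weeks the 4 differences lay between 0.61 (Sdhb) and 0.90 (Sdhc), and those between E18.5 and the adult ranged from -0.46 (Sdhd) to 0.04 (Sdhc). Sdhb had the highest level at each age.

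Complex III, the cytochrome bc1 complex, had 8 nuclear-encoded members with medians of -0.74 at P3 and 0.57 from P3 to 10 weeks, none of them past 2-fold. The core proteins Uqcrc1 and Uqcrc2, which form a large domain on the matrix side, differed from each other. Uqcrc1 stood at 169, 136 and 137 FPKM, and Uqcrc2 at 222, 111 and 167 FPKM, with log2 differences of -0.31 and -0.998 at P3, the latter just short of 2-fold. Uqcr10 (466, 258 and 411 FPKM) had the largest difference from P3 to 10 weeks, 0.67, and Uqcrc1 the smallest, 0.01. Uqcrh, the hinge protein, was the most abundant of the complex by its mean (635, 357 and 542 FPKM), and the Rieske iron-sulphur protein Uqcrfs1 the least (164, 92.4 and 136 FPKM). Cyc1, the cytochrome c1 of the same complex, which the naming rule does not take in, stood at 235, 138 and 154 FPKM.

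Cycs, the soluble electron carrier between complexes III and IV and a trigger of apoptosis when released, had 103 FPKM at E18.5, 44.8 at P3 and 90.8 in the adult. It was lower at P3 (-1.18) and higher again at 10 weeks (1.00). The second call sits at the threshold and is lost with a pseudocount of 5 (0.94) and under either other scaling (0.90 and 0.81). Its testis form Cyct stayed under 1 FPKM at the 3 ages (0.262, 0.0923 and 0.0835).

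Complex IV, cytochrome c oxidase, had 11 structural members in the ubiquitous form, with medians of -0.63 at P3, 0.27 between P3 and the adult, and -0.35 between E18.5 and the adult. Upper-quartile scaling puts the last pair at 0.07 and -0.76. All 11 had a lower value in the adult than at E18.5. Cox7c (821, 360 and 528 FPKM; -1.19 at P3) and Cox6c (938, 449 and 765 FPKM; -1.06), small subunits that span the membrane, were lower at P3. Cox6c had the highest mean of the complex and Cox7b (250, 144 and 238 FPKM) the lowest. Ndufa4, first described in complex I and now placed in complex IV, was nearly level, at 699, 721 and 688 FPKM. It was the only structural subunit of the 74 whose value was higher at P3 than at E18.5 (log2 difference 0.04), a sign that scaling turns (-0.07 with the median of ratios and -0.16 with the upper quartile). At E18.5 Cox6c, Cox6b1 (896, 519 and 701 FPKM) and Cox7c stood above it, and at P3 no other subunit of the complex did. Its adult value was also nearest to that of E18.5 (-0.02), and that of Cox6a1, described with its isoform below, was furthest under it (-0.65).

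Complex V, ATP synthase, had 15 members and the smallest median at P3 of the 5 complexes, -0.43, with 0.39 from P3 to 10 weeks, and no member past 2-fold. Atp5k, the small e subunit of the membrane part, had the highest mean of all 98 members (1196, 746 and 1076 FPKM). The catalytic beta subunit Atp5b stood at 979, 713 and 726 FPKM, so that its adult value was near its P3 value (log2 difference 0.03). Atp5j2, the f subunit, had the largest difference at P3 (695, 362 and 596 FPKM; -0.94). Atp5g1 (176, 170 and 225 FPKM; -0.05) and Atp5d, the delta subunit (261, 239 and 215 FPKM; -0.12), had the smallest. Atp5j, coupling factor 6, had the lowest mean of the complex.

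Atp5g1, Atp5g2 and Atp5g3 encode the same mature peptide, the c subunit of the rotor, behind different import sequences. Their sum was 1168 FPKM at E18.5, 1002 at P3 and 1129 in the adult. Atp5g3 supplied 49.2%, 48.4% and 47.6% of that sum, Atp5g2 35.7%, 34.7% and 32.5%, and Atp5g1 15.0%, 16.9% and 19.9%. The division among the 3 genes thus varied by less than 5 percentage points for each gene over the 3 ages. The shares in the Cox6a2, Cox7a1 and Cox8b pairs of complex IV, described below, varied by more.

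Of the 13 assembly and other factors, which help to build the complexes and are no part of the finished ones, 11 had a lower value at P3 than at E18.5 and 12 a higher value at 10 weeks than at P3. They were much less abundant than the subunits, with medians of 8.83, 7.28 and 10.8 FPKM, and their median differences were smaller at -0.22 and 0.34. Cox17, which delivers copper to complex IV, was the most abundant (114, 55.7 and 141 FPKM) and the only one past 2-fold, at -1.02 and 1.33. Ndufaf1, a complex I assembly factor, came next at P3 (11.4, 6.02 and 10.8 FPKM; -0.82). Cox18, which inserts a subunit into the inner membrane, was on the other side (8.83, 10.8 and 12.8 FPKM; 0.26), as was Cox10, which makes the haem A precursor (6.45, 7.14 and 6.30 FPKM; 0.13). Cox16 had the largest difference between E18.5 and 10 weeks (11.0, 9.37 and 18.8 FPKM; 0.72), and Cox19 the lowest (37.2, 28.7 and 33.3 FPKM; -0.15). Cox7a2l, which links complexes III and IV, stood at 216, 155 and 219 FPKM, and Cox4nb at 7.73, 9.87 and 10.3 FPKM. Among 19 further assembly genes outside the naming rule, 0 were called at P3, beside 9.42% of all rows lower and 9.56% higher. From P3 to 10 weeks 1 of these 19 was higher, beside 19.8% of all rows, the complex I factor Tmem126b (18.9, 9.46 and 27.1 FPKM; 1.42). Their medians were -0.25 and 0.23. Surf1, of complex IV assembly, came next (23.3, 19.7 and 35.0 FPKM; 0.79), and Acad9 (47.1, 80.5 and 50.2 FPKM; -0.67) and Lrpprc (16.3, 19.2 and 14.4 FPKM; -0.40) had the lowest differences.

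The muscle-type isoforms of complex IV differed from the ubiquitous subunits in the size of their changes. Cox6a2 (mm9 chromosome 7, 135317460 to 135349880), the heart and muscle form of subunit 6a, had 49.0 FPKM at E18.5, 4.73 at P3 and 424 in the adult. Cox7a1 (chromosome 7, 30969190 to 30971049), the form of subunit 7a found in muscle, heart and brown fat, stood at 231, 14.9 and 198 FPKM. Cox8b (chromosome 7, 148084841 to 148086345), the corresponding form of subunit 8, stood at 316, 17.2 and 402 FPKM. All 3 were thus 10.4-fold, 15.5-fold and 18.3-fold lower in FPKM at P3 than at E18.5, and 89.7-fold, 13.3-fold and 23.3-fold higher at 10 weeks than at P3. On the log2 scale with a pseudocount the differences were -3.13, -3.87 and -4.12, and then 6.21, 3.64 and 4.46.

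They did not keep a fixed ratio to each other. At E18.5 Cox8b was 6.46 times and Cox7a1 4.72 times as abundant as Cox6a2, and at P3 3.65 and 3.15 times. At 10 weeks Cox6a2 was the highest of the 3, at 1.06 times Cox8b and 2.15 times Cox7a1. Between E18.5 and 10 weeks only Cox6a2 was higher (log2 difference 3.09), while Cox7a1 (-0.23) and Cox8b (0.34) were near their earlier level. Cox6a2 shares its listed span with Itgad, an integrin gene at 0.0164, 0.0626 and 0.217 FPKM.

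**Figure D3:**
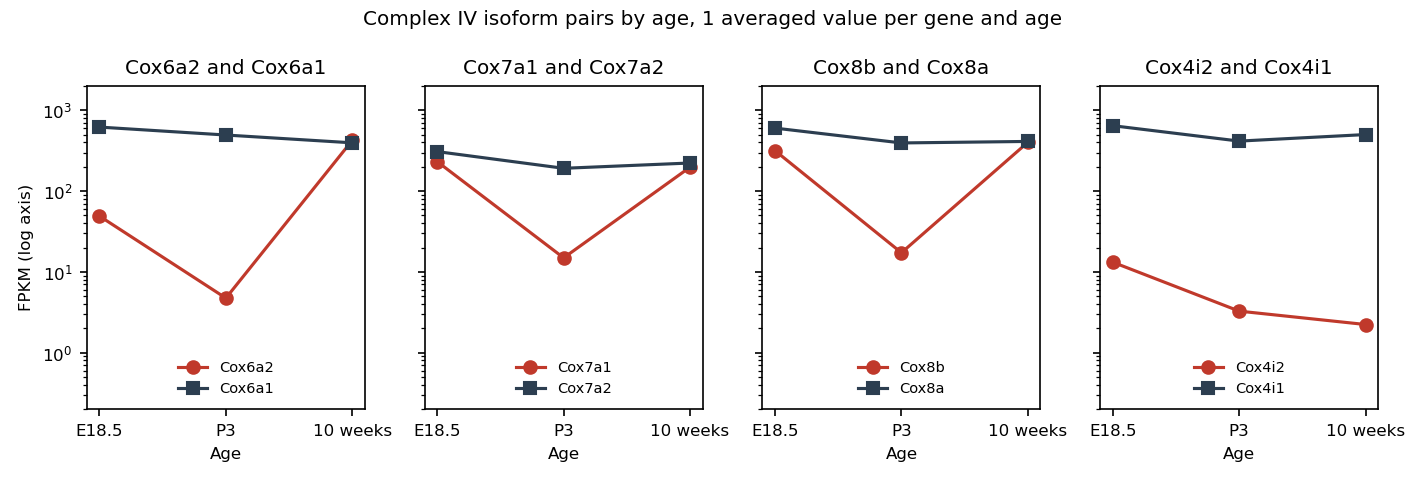
FPKM on a log axis at the 3 ages for the tissue-specific isoform (red circles) and its ubiquitous partner (dark squares) in 4 pairs of complex IV subunits. Cox6a2, Cox7a1 and Cox8b lie at 4.73, 14.9 and 17.2 FPKM at P3 and meet their partners at 10 weeks, whereas Cox4i2 has its lowest value, 2.23 FPKM, at 10 weeks.

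FPKM is per length, so that levels of partner genes may be set side by side within a library, where scaling between libraries has no effect. The limit is that several of these transcripts are short (360 bases for Cox8b, 439 for Cox7a1, 550 for Cox8a and 571 for Cox6a1 in GENCODE M21), which makes their FPKM less reliable, so that the shares are less sure as absolute values than in their differences between ages. Cox6a2 made up 7.33% of the Cox6a2 and Cox6a1 sum before birth, 0.948% at P3 and 51.7% in the adult. Cox7a1 made up 42.9%, 7.22% and 47.0% of its sum with Cox7a2, and Cox8b 34.5%, 4.19% and 49.4% of its sum with Cox8a. In the adult the 3 muscle-type isoforms each supplied close to the same amount of transcript as the ubiquitous form, and in newborn skin at most 7.22% of the pair. At E18.5 the pairs were unlike each other, with Cox6a2 well below the others.

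The ubiquitous partners moved little beside that. Cox6a1 stood at 620, 494 and 396 FPKM, Cox7a2 at 308, 191 and 223 FPKM, and Cox8a at 602, 394 and 412 FPKM. Cox6a1 was the only one of these whose adult value lay below its P3 value (log2 difference -0.32, the lowest among the structural subunits in that comparison). The sum of both forms of subunit 6a was 669, 499 and 820 FPKM, of subunit 7a 539, 206 and 420 FPKM, and of subunit 8 919, 412 and 814 FPKM. The change in log2 ratio of isoform to partner was -2.80, -3.19 and -3.51 from E18.5 to P3 and 6.53, 3.43 and 4.40 from P3 to 10 weeks for Cox6a2, Cox7a1 and Cox8b.

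**Figure D4:**
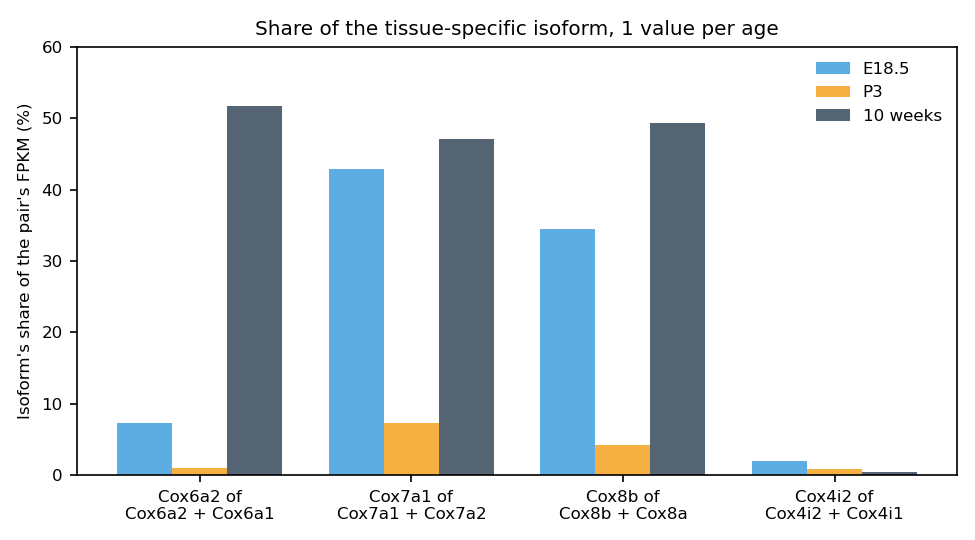
Bars give the tissue-specific isoform's percent of the summed FPKM of isoform and ubiquitous partner at each age, with 1 value per bar and no error. Cox6a2, Cox7a1 and Cox8b supply 47.0% to 51.7% of their pair at 10 weeks and 0.948% to 7.22% at P3, and Cox4i2 never more than 2.00%.

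Cox4i2 (chromosome 2, 152579909 to 152590773), a form of subunit 4 known from lung and from oxygen-sensing smooth muscle and pericytes, followed another course. It had 13.2 FPKM at E18.5, 3.26 at P3 and 2.23 in the adult, 4.03-fold lower at P3 than at E18.5 (log2 difference -1.73) with no return in the adult (-0.40 from P3, -2.13 from E18.5). Its ubiquitous partner Cox4i1 (chromosome 8, 123192190 to 123198109) stood at 645, 416 and 501 FPKM, so that Cox4i2 was 2.00%, 0.779% and 0.443% of the pair. The change in log2 ratio was -1.10 from E18.5 to P3 and -1.77 to 10 weeks. With a pseudocount of 5 these were -0.51 and -0.97, under 2-fold.

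Among the other isoforms, Ndufa4l2 (chromosome 10, 126951995 to 126959491), a relative of Ndufa4 that hypoxia induces, stood at 118, 81.6 and 57.7 FPKM. It was lower at 10 weeks than at E18.5 (log2 difference -1.02, and -0.98 with a pseudocount of 5), and its share of the sum with Ndufa4 was 14.5%, 10.2% and 7.74%. Its listed span is shared with Shmt2 (25.02, 34.01 and 14.98 FPKM), and how reads were divided between them is not known. Cox6b2, a testis form of subunit 6b, stood at 14.6, 11.2 and 8.82 FPKM, or 1.60%, 2.12% and 1.24% of its sum with Cox6b1. From E18.5 to 10 weeks 1 of 96 members was thus higher, Cox6a2, and 2 were lower, Cox4i2 and Ndufa4l2, beside 16.1% and 6.92% of all rows.

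The sequence before the gene start is shown for the pairs of subunits 7a and 8, whose forms changed unequally, and for Cox6a1, the ubiquitous form of subunit 6a. These are the 250 bases before the start in the RefSeq promoter table (build GRCm38.p6, not the mm9 of the expression tables), printed from 5′ to 3′ on the gene's strand. The table gave no entry for Cox6a2, Cox4i1 and Cox4i2. Capitals mark matches on either strand to any of 5 motifs: GCGCANGC (the core of the NRF1 motif), CCGGAAG (ETS and GABPA type), TNAAGGTCA (ERR type), TATTTATA (MEF2 type) and CAGCTG (the E-box of the myogenic type).
Cox7a1 (chr7:30183921-30184170, plus strand): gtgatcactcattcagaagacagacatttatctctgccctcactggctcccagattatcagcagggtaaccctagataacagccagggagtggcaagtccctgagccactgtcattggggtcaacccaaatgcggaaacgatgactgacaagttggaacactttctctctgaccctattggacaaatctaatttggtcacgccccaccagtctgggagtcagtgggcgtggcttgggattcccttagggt
Cox7a2 (chr9:79759854-79760103, minus strand): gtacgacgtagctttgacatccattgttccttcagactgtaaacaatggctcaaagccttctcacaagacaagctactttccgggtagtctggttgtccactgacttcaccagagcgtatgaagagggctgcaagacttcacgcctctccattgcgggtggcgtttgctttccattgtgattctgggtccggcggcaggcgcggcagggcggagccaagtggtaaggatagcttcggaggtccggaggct
Cox8b (chr7:140900447-140900696, minus strand): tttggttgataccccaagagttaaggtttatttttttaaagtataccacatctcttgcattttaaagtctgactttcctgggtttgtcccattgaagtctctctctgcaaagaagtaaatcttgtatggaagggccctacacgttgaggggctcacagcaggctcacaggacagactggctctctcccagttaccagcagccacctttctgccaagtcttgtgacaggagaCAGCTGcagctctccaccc
Cox8a (chr19:7217617-7217866, minus strand): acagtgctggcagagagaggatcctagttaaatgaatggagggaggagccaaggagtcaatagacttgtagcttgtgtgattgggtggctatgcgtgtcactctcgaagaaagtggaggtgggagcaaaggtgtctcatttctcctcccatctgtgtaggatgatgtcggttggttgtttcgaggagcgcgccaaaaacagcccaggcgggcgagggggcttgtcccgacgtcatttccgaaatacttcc
Cox6a1 (chr5:115348959-115349208, minus strand): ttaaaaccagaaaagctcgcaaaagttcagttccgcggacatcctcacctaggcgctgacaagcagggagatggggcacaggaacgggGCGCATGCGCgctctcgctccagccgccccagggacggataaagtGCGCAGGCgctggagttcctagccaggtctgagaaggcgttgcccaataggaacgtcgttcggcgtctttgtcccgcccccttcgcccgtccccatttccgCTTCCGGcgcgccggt

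Cox6a1 held 3 NRF1 core matches, from 162, 160 and 117 bases before the start, of which the first 2 overlap, and 1 ETS-type match from 16 bases before it. Cox8b held an E-box match from 19 bases before its start. Cox7a1, Cox7a2 and Cox8a held none of the 5 in these 250 bases. With the 50 bases after the start included, Cox8a held 2 ETS-type matches and Cox8b 2 E-box matches in all, and Cox7a1 and Cox7a2 still none. Over the full windows of 300 bases (250 before to 50 after the start), 80 of the 98 members were found in the table, 63 of them structural subunits. The NRF1 core stood in 23 of these 63 (36.5%), against 11.2% of all genes in the table and 20.3% of the rows compared here that were matched by symbol. The ETS-type motif stood in 16 (25.4%), against 9.93% and 17.8%, and the ERR-type motif in 3 (4.76%; Atp5g3, Ndufb4 and Sdhd), against 1.43% and 0.983%. The E-box stood in 5 (7.94%), against 18.3% and 18.5%, and the MEF2-type motif in 0, against 2.01% and 1.43%. The 68 promoters listed for structural subunits had a median of 19.5 CG dinucleotides per 300 bases, against 7 over all promoters, and motifs that hold CG go with that base composition. These are letter matches, not sites shown to be bound.

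Marker genes of other cell types moved between the same ages. Over all rows 9.42% were lower and 9.56% higher at P3. From P3 to 10 weeks 19.8% were higher and 9.98% lower. Adult skeletal muscle markers were lower at P3 than at E18.5 in 18 of 19 cases and higher at 10 weeks than at P3 in 17 of 19, with 1 lower, the slow-fibre gene Tnni1. Their medians were -3.12 and 5.76, against 0.03 and 0.14 for all rows. They summed to 6202 FPKM at E18.5, 527 at P3 and 29808 in the adult, and none was listed at 0. The largest differences from P3 were in Pvalb (9.23), a calcium buffer, and Myh4 (8.49), the fast myosin. Cox6a2 had 0.107, 0.180 and 0.138 of the FPKM of the muscle creatine kinase Ckm. Cox7a1 was 0.507, 0.568 and 0.0643 of Ckm, and Cox8b 0.694, 0.657 and 0.131. Relative to Ckm both were thus lowest in the adult, and Cox6a2 was not. Embryonic and neonatal muscle markers, such as Myh8 (188, 13.5 and 1.36 FPKM), were lower at P3 in 7 of 8, and their summed level was 595, 39.1 and 17.4 FPKM.

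Brown fat markers were lower at P3 in 3 of 6 compared and higher in 1 (Elovl3), with a median of -1.47, and their summed level was 217, 61.8 and 130 FPKM. Over all rows 9.42% were lower at P3 and 9.56% higher. The defining marker Ucp1, the uncoupling protein, had 64.5 FPKM at E18.5, 2.54 at P3 and 0.0308 in the adult, so that it was near 0 in the adult, when Cox7a1 and Cox8b stood at 198 and 402 FPKM. From P3 to 10 weeks 3 of the 6 were higher and 2 lower (Ucp1 and Elovl3), beside 19.8% and 9.98% of all rows. The higher ones were Cidea (121, 25.6 and 86.9 FPKM), a lipid droplet protein, Cpt1b and Ppargc1a, neither of which is limited to brown fat. White adipocyte markers were lower at P3 in 8 of 11 and higher in 1 (Lep), and higher at 10 weeks than at P3 in 11 of 11, with medians of -1.47 and 2.87 and summed levels of 6347, 1924 and 10461 FPKM. Keratinocyte markers went the other way, higher at P3 in 7 of 10 and lower at 10 weeks than at P3 in 7 of 10, with 1 higher (Krt77, at 18.7, 224 and 963 FPKM). Their medians were 1.34 and -1.44. Their summed levels were 14746, 18514 and 8521 FPKM, of which the P3 sum lacks Krt1 and Krt10, whose estimates failed at that age only. The part of these cell types in the changes of the respiratory chain genes was not tested. In tissue RNA, fewer cells of a type and less RNA per cell cannot be told apart.

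**Figure D5:**
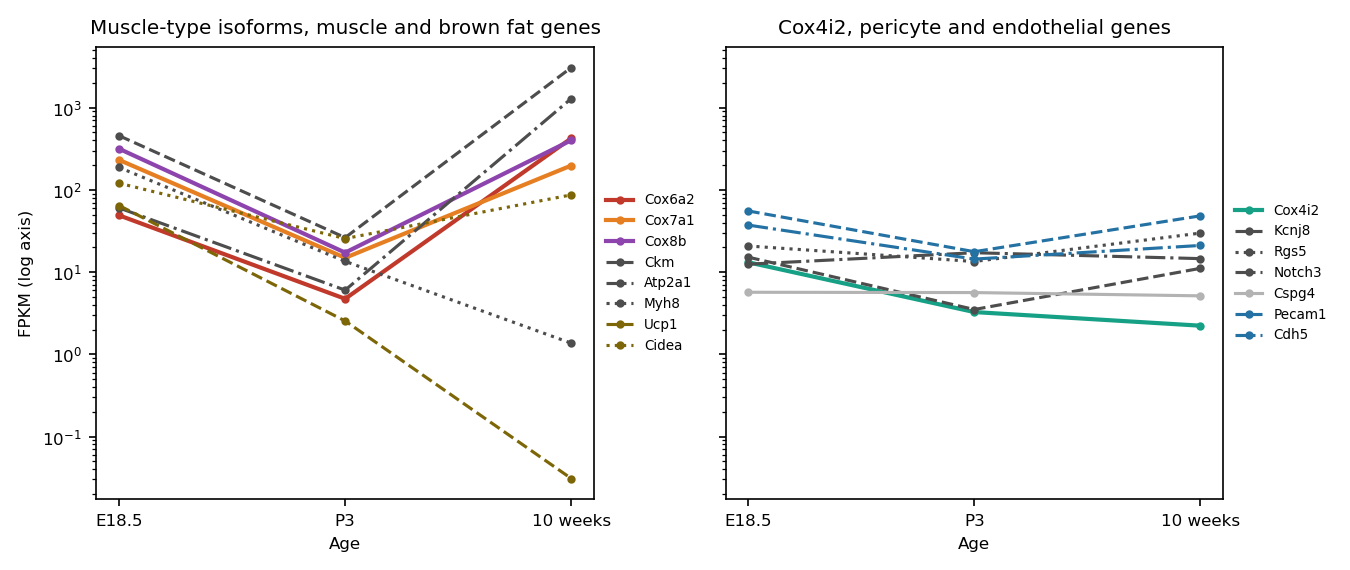
FPKM on a log axis at the 3 ages. On the left, Cox6a2, Cox7a1 and Cox8b beside the muscle genes Ckm, Atp2a1 and Myh8 and the brown fat genes Ucp1 and Cidea, which end at 0.0308 and 86.9 FPKM. On the right, Cox4i2 beside pericyte genes (Kcnj8, Rgs5, Notch3 and Cspg4) and endothelial genes (Pecam1 and Cdh5). From P3 to 10 weeks Kcnj8, Rgs5, Pecam1 and Cdh5 go to higher values, and Notch3, Cspg4 and Cox4i2 to lower ones. The pericyte genes drawn are part of a list of 12 pericyte and smooth muscle markers. Notch3 and Cspg4 are the only 2 of these 12 with a lower value at 10 weeks than at P3.

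Beside Cox4i2, the endothelial markers were lower at P3 in 10 of 10 and higher at 10 weeks than at P3 in 7 of 10, with summed levels of 279, 92.2 and 240 FPKM. Over all rows 9.42% were lower at P3 and 19.8% higher from P3 to 10 weeks. The pericyte and smooth muscle markers were lower at P3 in 3 of 12 and higher at 10 weeks in 9 of 12, with summed levels of 319, 212 and 884 FPKM. These counts include Des (95.8, 10.8 and 450 FPKM), which skeletal muscle also makes, and Abcc9, whose E18.5 value bears a failure mark. Without these genes, 1 of 10 was lower at P3 (Kcnj8, a potassium channel subunit of pericytes, at 15.2, 3.51 and 11.1 FPKM), 7 of 10 were higher at 10 weeks than at P3, and the sums were 216, 198 and 420 FPKM. Notch3 (12.5, 17.2 and 14.6 FPKM) and Cspg4 (5.68, 5.63 and 5.14 FPKM) had lower values at 10 weeks than at P3, as Cox4i2 did. They were the only 2 of the 12 markers with a lower value. The part of these cell types in the course of Cox4i2 was not tested.

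Other mitochondrial genes split into those with a P3 dip and those without. Beside the counts that follow, 9.42% of all rows were lower and 9.56% higher at P3. From P3 to 10 weeks 19.8% of all rows were higher and 9.98% lower. Citric acid cycle and pyruvate dehydrogenase enzymes had a median of -0.94 at P3, with 6 of 16 lower and 0 higher, and 0.66 from P3 to 10 weeks, with 1 higher, Pdha1 (126, 64.3 and 150 FPKM; 1.21). Citrate synthase, Cs, was nearly level at 151, 143 and 138 FPKM. Enzymes of fatty acid oxidation were lower at P3 in 6 of 15 and higher in 1, with a median of -0.83. From P3 to 10 weeks 2 of the 15 were higher and 0 lower. The muscle form of the carnitine transferase, Cpt1b, stood at 22.4, 1.35 and 24.6 FPKM and Eci1 (listed as Dci) at 75.3, 18.5 and 66.5 FPKM. The ubiquitous Cpt1a was the higher one, at 6.86, 28.8 and 21.3 FPKM. Acaa2, the last enzyme of the cycle, had the lowest difference from P3 to 10 weeks (243, 150 and 102 FPKM; -0.55).

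Carriers and outer membrane genes, by contrast, had a median of -0.05 at P3 and -0.11 from P3 to 10 weeks. At P3 1 of 16 was higher and 2 were lower, beside 9.56% and 9.42% of all rows. At 10 weeks 3 were higher than at P3 and 1 was lower, beside 19.8% and 9.98% of all rows. Slc25a5 and Ckmt1, ubiquitous forms beside a muscle form, had their highest value at P3. In complex IV Cox6a1, Cox7a2, Cox8a and Cox4i1 had theirs at E18.5, whereas Ndufa4, nearly level, had it at P3. Slc25a4, the ADP/ATP carrier of muscle and heart, stood at 410, 170 and 942 FPKM, and its ubiquitous relative Slc25a5 at 469, 564 and 330 FPKM. Of the mitochondrial creatine kinases, the sarcomeric Ckmt2 stood at 18.6, 1.12 and 104 FPKM and the ubiquitous Ckmt1 at 50.9, 118 and 44.4 FPKM. The import receptor subunit Tomm40 (38.0, 56.4 and 28.2 FPKM) also had its highest value at P3. Vdac3 stood at 90.5, 61.5 and 144 FPKM.

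Regulators of mitochondrial gene expression had a median of -0.02 at P3 and 0.09 from P3 to 10 weeks, near those of all rows. At P3 0 of 17 compared were higher and 2 were lower, Ppara (5.76, 0.885 and 3.22 FPKM), a fatty acid receptor, and Mef2c (17.0, 4.98 and 28.2 FPKM), a muscle and vessel factor. Both and Ppargc1a (1.44, 0.455 and 2.21 FPKM), the coactivator of mitochondrial biogenesis, were higher at 10 weeks than at P3. Over all rows 9.56% were higher and 9.42% lower at P3. From P3 to 10 weeks 3 of the 17 regulators were higher and 0 lower, beside 19.8% and 9.98% of all rows. Nrf1, which drives many respiratory chain promoters, stood at 10.7, 12.9 and 8.72 FPKM, and Gabpa at 19.8, 20.4 and 15.7 FPKM. Pprc1, a relative of Ppargc1a, stood at 8.92, 13.0 and 8.44 FPKM. The transcription factor of the mitochondrial genome, Tfam, was nearly level at 11.6, 10.3 and 11.1 FPKM. Subunits that the mitochondrial genome itself encodes were not analysed here.

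The structural subunits are short messages, with a median transcript length of 655 bases in GENCODE M21 against 2128.5 for all rows compared with a known length. Across the 74 subunits, which share the same libraries and are not independent replicates, level and length were inversely related (Spearman's rho -0.44, Pearson's r -0.30 on log2 values). FPKM is itself divided by transcript length, so that this relation may be in part arithmetic. The differences between ages had rank correlations with length near 0 (rho -0.00 at P3 and 0.00 from P3 to 10 weeks). The shorter 37 subunits had medians of -0.61 and 0.50, and the longer 37 of -0.65 and 0.56. FPKM of transcripts near the length of the sequenced fragments is less reliable, which concerns comparisons of level between subunits more than comparisons of 1 gene between ages.

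For 12 members the tables list a span that is shared with another row. Atp5j shares it with Gabpa and with LOC654426 (387, 287 and 456 FPKM), and it stood at 105, 87.4 and 172 FPKM, the largest difference among complex V subunits between P3 and the adult (0.97) and between E18.5 and the adult (0.70). Summed with LOC654426 these differences were 0.74 and 0.35. Ndufs5 shares its span with BC002163 (92.9, 35.8 and 50.1 FPKM), and summed with it the P3 difference was -0.85 in place of -0.19. How reads were divided in these spans is not stated, and the levels of the 12 are uncertain one by one. Many respiratory chain genes also have processed copies elsewhere in the genome that can take up reads.

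The 3 structural subunits on the X chromosome, Ndufa1 (205, 131 and 217 FPKM), Ndufb11 (234, 137 and 231 FPKM) and Cox7b, had differences of -0.64, -0.76 and -0.79 at P3, inside the range of the autosomal subunits. Their differences between E18.5 and 10 weeks were 0.08, -0.02 and -0.07. Both sets of differences lie across the change of sex pattern, which was male at E18.5 and female at P3 and 10 weeks.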

How the data were processed

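The members and gene lists were chosen with earlier results of these data known. Per the file headers, the deposited values are FPKM that the authors averaged. TopHat2 2.0.7, Cufflinks 2.1.1 and build mm9 come from the submitters' processing notes. The annotation, strand setting, read numbers and averaging method have no statement in those sources. Values marked failed and listed at 0 (3 at E18.5, 7 at P3, no member) were left out. At E18.5, 24 more rows, again no member, are marked as failed but list nonzero estimates, which were used.

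Log2 ratios of (FPKM + 1) were computed in Python 3.11.15 (pandas 2.3.3) for 3 comparisons, among rows that reached 1 FPKM at any age, and called at 2-fold. The calling was run on simulated data with changes well past the threshold, which checks its arithmetic only and not the spread between animals. With 1 value per age no test was run. Starts were raised by 1, because end minus start equalled the RefSeq length in 228 of 533 microRNA genes, and end minus start plus 1 in 3. Median-of-ratios scaling moves log2 ratios by -0.12 (P3 against E18.5), -0.10 (10 weeks against P3) and -0.22 (10 weeks against E18.5), and upper-quartile scaling by -0.21, -0.20 and -0.41.

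Named members are all isoform pairs, Sdha to Sdhd, Cycs, the 2 largest 2-fold changes per complex, direction and comparison (otherwise the highest and lowest), the highest and lowest mean level per complex, and members listed at 0. For other lists they are the largest changes from P3 to 10 weeks. Further genes named were chosen after their values were seen. A planned comparison of isoform proteins was not made. Some named genes are not reported here.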

Additional observations from a re-analysis of the deposited data

How the results depend on the processing

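No paired analysis was possible because each age has 1 averaged value. Alternatives were pseudocounts of 0.1 and 5, no minimum or a minimum of 5 FPKM, scaling by the median of ratios or the upper quartile, a 1.5-fold call and, added after the data were seen, leaving out the 12 members with a shared span, or Des and Abcc9 from the pericyte list. Lower members at P3 against E18.5 numbered 8 with a pseudocount of 5 and 14 with the median of ratios (11.1% of all rows then). They numbered 22 with the upper quartile (12.5% of all rows then) and 51 at 1.5-fold. Higher members at 10 weeks against P3, 9 as reported, numbered 7 with a pseudocount of 5 and 7 without shared spans. They numbered 7 with the median of ratios (18.3% of all rows then), 6 with the upper quartile (16.8%) and 39 at 1.5-fold. At 10 weeks against E18.5, 3 were higher at 1.5-fold and 0 without shared spans. Lower ones, 2 as reported beside 6.92% of all rows, numbered 1 with a pseudocount of 5 and 1 without shared spans. With the upper quartile 5 of 96 were lower and 1 higher, against 10.4% and 11% of all rows then. At 1.5-fold 5 were lower, and no share over all rows was taken at that threshold in this comparison. The complex II median at P3 passed 2-fold with the median of ratios (-1.05) and the upper quartile (-1.14). No median of complexes I to V changed sign in P3 against E18.5 or 10 weeks against P3 under these settings, but the complex IV median from P3 to 10 weeks went down to 0.07 with the upper quartile. The complex I median at 10 weeks against E18.5, 0.01, ranged from -0.39 to 0.01. With a pseudocount of 5 the log2 ratio of Cox6a2 to Cox6a1 changed by -2.15 to P3 and 5.78 from P3, and that of Cox4i2 to Cox4i1 by -0.51 to P3 and -0.97 from E18.5 to 10 weeks. Unknown depth limits statements on genes of a few FPKM, such as Cox4i2.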
